A study of Nannochloropsis oceanica with 12 samples.

Results

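DGAT1A is a gene of the unicellular marine alga *Nannochloropsis oceanica* IMET1 whose name marks it as a diacylglycerol acyltransferase. It was taken by its ID, isotig00738.DGAT1A, and is 1 of the 9756 genes in the deposited tables, in which the other 9755 IDs consist of a scaffold and a gene number. Transcript levels were measured by sequencing of polyadenylated RNA in 4 groups: wild type (WT) at 12 h, WT at 24 h, M2 at 12 h and M2 at 24 h. M2 derives from the same strain and carries an RNA interference knockdown of CA2, a carbonic anhydrase. Both lines were grown at 25 °C in continuous light of about 80 µmol photons per square metre and second, bubbled with air holding 5% CO2, washed, put into fresh medium at equal cell numbers and kept under 5% CO2 until sampling. M2 is a single knockdown line and WT the only line it is compared with, so the effect of the knockdown and any other difference between M2 and WT cannot be told apart. The labels do not say which ID is CA2, and its level was not checked.

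Diacylglycerol acyltransferases carry out the last step of the acyl-CoA-dependent route to triacylglycerol, in which an acyl group is moved from acyl-CoA onto diacylglycerol. The type 1 enzymes, to which the name DGAT1A points, belong to the membrane-bound O-acyltransferase family and are unrelated in sequence to the type 2 enzymes. Algae of the genus *Nannochloropsis* are known for storing triacylglycerol in lipid droplets, above all when nitrogen runs short. Carbonic anhydrases interconvert CO2 and bicarbonate, and fatty acid synthesis in the chloroplast draws on the carbon that photosynthesis fixes.

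The sequence and genome position of DGAT1A, its exons and its UTRs are not known from the files used here. None (0) of the 9756 IDs matched the available RefSeq table, which holds 160 organelle genes, so other acyltransferases and further genes of triacylglycerol synthesis could not be picked out. The libraries carried no strand information, so reads from an overlapping gene on the other strand, if there is one, are included in the value. Whole cells and total RNA are given as the source in the labels, which also list nuclear RNA as the molecule subtype, and which of these the values represent is not settled.

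Levels are given in FPKM, fragments scaled by transcript length and by the number of mapped fragments, which allow genes to be ordered within a library. The read depth is not given. The groups were deposited in separate tables, so the effect of a table's normalization and that of the group cannot be told apart. The 10 libraries compared had FPKM sums of 606886 to 617319, between 5 and 109 genes at 0, and correlations within groups of r = 0.992 to 0.997 across genes on the log2(FPKM + 1) scale. WT 12 h replicate 3 had a sum of 780704 and correlated with its own group at 0.715 at most. It was left out of the comparisons, and the differences are given with it further on. In the M2 12 h table the final column repeated the header of replicate 2 and held the values of replicate 1 multiplied by 0.723, to a tolerance of 0.1%, in 9646 of 9647 genes with a value above 0. DGAT1A, at 20.9 FPKM in that column, had the same ratio of 0.723, and the column was not counted as a library. M2 at 12 h and WT at 12 h thus had 2 libraries each, and both lines had 3 at 24 h.

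In M2 at 12 h, DGAT1A had 28.8 FPKM in replicate 1 and 29.9 FPKM in replicate 2. In WT at 12 h it had 25.8 FPKM in replicate 1 and 24.8 FPKM in replicate 2. The M2 libraries were both above the WT libraries, by at least 3.01 FPKM. A higher level in every cell and a larger share of cells with the transcript cannot be told apart in such bulk values. In M2 at 24 h the values were 25.5, 25.0 and 23.4 FPKM in replicates 1 to 3, and in WT at 24 h they were 22.9, 22.4 and 23.1 FPKM. The 24 h groups did not overlap either, but the lowest M2 library lay only 0.331 FPKM above the highest WT library.

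To compare libraries, each was divided by its median ratio to the geometric mean of each gene, taken over 9615 genes with values above 0 in all 10, and these factors lay between 0.963 and 1.02. On this scale the mean level was 30.4 ± 0.704 scaled FPKM in M2 at 12 h (SD, n = 2), 25.2 ± 0.703 in WT at 12 h (SD, n = 2), 24.7 ± 1.12 in M2 at 24 h (SD, n = 3) and 22.3 ± 0.336 in WT at 24 h (SD, n = 3). The transcript was therefore highest in M2 at 12 h and lowest in WT at 24 h, and these 2 means differed 1.36-fold. In the middle of this order WT at 12 h (24.7 and 25.7 scaled FPKM) overlapped with M2 at 24 h (23.4 to 25.5 scaled FPKM). This neighbouring pair did not pass the test: the log2 difference of M2 at 24 h from WT at 12 h was -0.03 (95% interval -0.15 to 0.09, limma adjusted p = 0.671), in a comparison where 62.4% of genes were called. With WT 12 h replicate 3 included it was -0.17 (SE 0.13, limma adjusted p = 0.382). Among the 10 libraries the other neighbours did not overlap. M2 lay above WT without overlap in 38.3% of genes at 12 h and in 37.6% at 24 h. With WT 12 h replicate 3 included and scaled (33.4 scaled FPKM), WT at 12 h overlapped with M2 at 12 h (29.2 and 30.1 scaled FPKM).

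**Figure D1:**
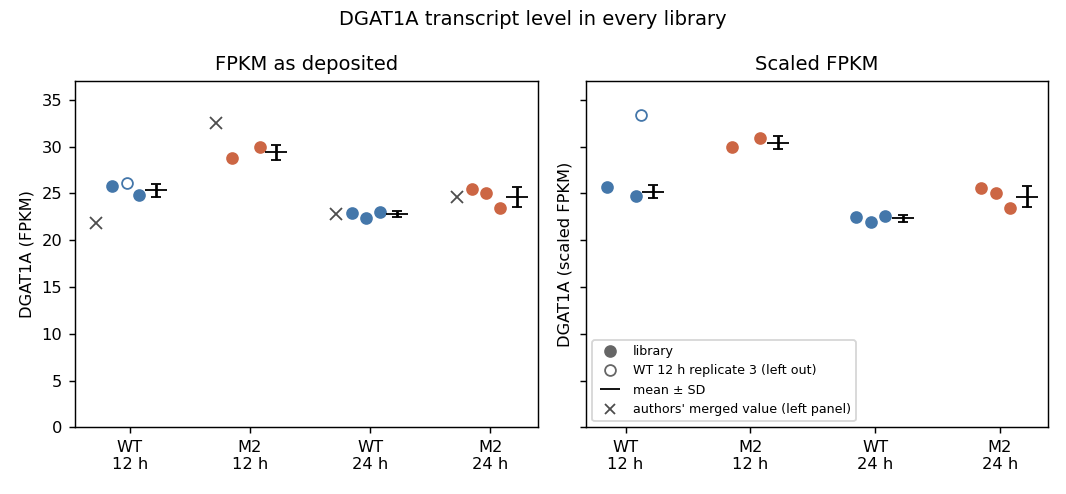
DGAT1A level in each library as deposited (left, FPKM) and after median-of-ratios scaling (right, scaled FPKM), for WT (blue) and M2 (orange) at 12 h and 24 h. Filled points are libraries, bars are mean ± SD over 2 libraries at 12 h and 3 at 24 h, crosses are the authors' merged values, and the open point is WT 12 h replicate 3, scaled together with all 11 libraries. Among the compared libraries those of M2 at 12 h sit highest (28.8 and 29.9 FPKM) and those of WT at 24 h lowest (22.4 to 23.1 FPKM), whereas the open point lies at 26.1 FPKM on the left and above all of them, at 33.4 scaled FPKM, on the right.

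DGAT1A was a gene of middling abundance in all 4 groups. At a mean of 29.4 FPKM it took rank 4112 of 9756 in M2 at 12 h, above 57.9% of genes. In WT at 12 h, at 25.3 FPKM, it took rank 4790, above 50.9% of genes, or rank 4777 with replicate 3 included. Within WT 12 h replicate 3 alone it took rank 4208, above 56.9% of genes. In M2 at 24 h it had 24.6 FPKM and rank 4889, above 49.9% of genes, and in WT at 24 h it had 22.8 FPKM and rank 5241, above 46.3% of genes. The order of the groups by rank was the same as by level. The median gene stayed between 23.7 and 24.8 FPKM over the groups, so that DGAT1A went from 1.24 times the median gene in M2 at 12 h to 0.922 times the median gene in WT at 24 h. In single libraries it stood above 45.7% of genes at the lowest (WT 24 h replicate 2) and above 58.6% at the highest (M2 12 h replicate 2). The 90th percentile of genes lay at 105 to 109 FPKM and the 25th at 10.6 to 13.1 FPKM, so DGAT1A was well inside both.

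**Figure D2:**
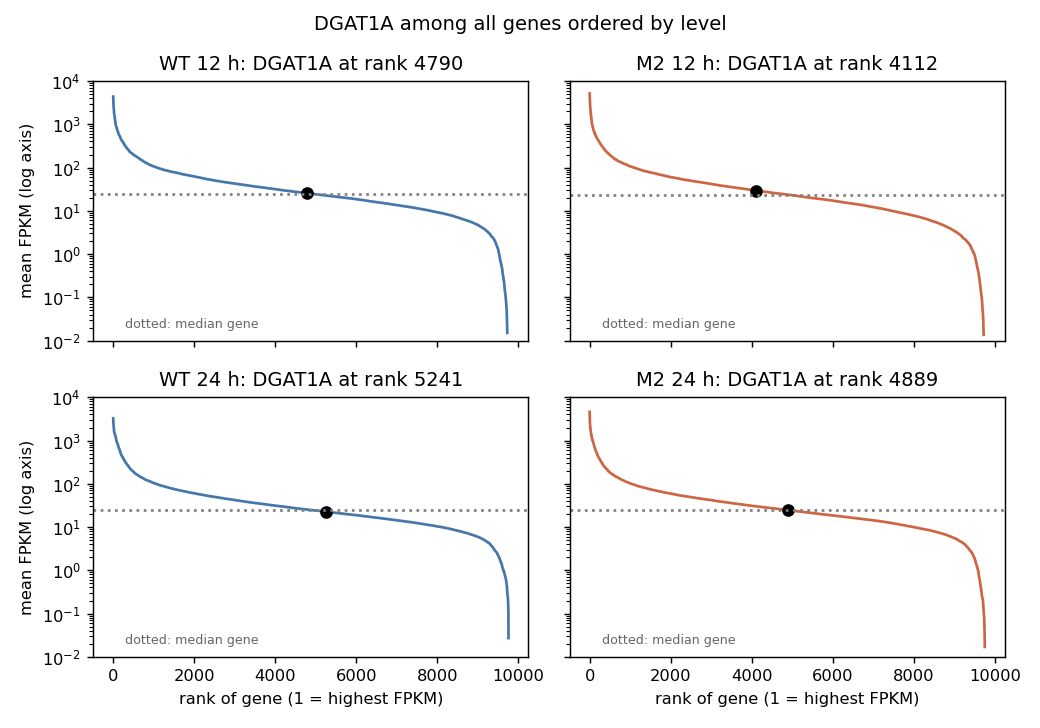
All genes of each group ordered by mean FPKM (log axis) against their rank, with DGAT1A as a black point and the median gene as a dotted line, and genes at 0 left out of the curves. DGAT1A lies close to the median gene in every group, at rank 4112 in M2 12 h and rank 5241 in WT 24 h.

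M2 had more DGAT1A transcript than WT at 12 h. The difference was 0.26 on the scale of log2(scaled FPKM + 1) (SE 0.06, 95% interval 0.13 to 0.40), a ratio of 1.21 between the mean scaled levels, and it passed the test (limma over 9579 genes, adjusted p = 0.00355). Passing is common in this comparison: 57.1% of tested genes were called and 28.8% were called as higher in M2. With FPKM as deposited, the called genes numbered 2143 higher and 3173 lower, against 2756 higher and 2717 lower with scaling. The size of the DGAT1A difference was ordinary too, since 52.9% of other genes had a smaller absolute difference, and 78.9% had a lower signed one. In 38.3% of genes, DGAT1A among them, both M2 libraries were above both WT libraries in scaled FPKM.

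At 24 h the difference between the lines was 0.14 on the same log2 scale (SE 0.05, 95% interval 0.03 to 0.25), a ratio of 1.10, and it passed narrowly (limma adjusted p = 0.0359). In this comparison 58.0% of genes were called and 32.3% were called as higher in M2, and M2 and WT did not overlap, with M2 higher, in 37.6%. Only 33.3% of other genes had a smaller absolute difference than DGAT1A. The call depended on single libraries and on the scaling. Leaving out WT 24 h replicate 1 (log2 difference 0.14, limma adjusted p = 0.0669), replicate 2 (0.13, limma adjusted p = 0.0932) or replicate 3 (0.15, limma adjusted p = 0.0621), or M2 24 h replicate 1 (0.11, limma adjusted p = 0.116) or replicate 2 (0.13, limma adjusted p = 0.0937), ended it. It was also lost with each of the other 5 scalings (0.11 to 0.13) and with the replicate number as a block (0.14, limma adjusted p = 0.0561). Without M2 24 h replicate 3, the lowest M2 library, the log2 difference was 0.18 (limma adjusted p = 0.018).

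With equal weight for both times, M2 was higher by 0.20 on the log2 scale (SE 0.04, 95% interval 0.11 to 0.29, limma adjusted p = 0.000951), in a comparison where 65.9% of genes were called and 35.5% called higher in M2. For DGAT1A taken alone, an exact permutation test (2-sided) of the lines within each time gave p = 0.0167, the smallest value that its 120 arrangements allow. Within 1 time the exact test cannot reach 0.05, since 2 libraries against 2 allow p = 0.333 at best and 3 against 3 allow p = 0.1. All 5 M2 libraries lay above every compared WT library of their own time, which leaves out WT 12 h replicate 3. Separation in this direction was common, in 38.3% of genes at 12 h and in 37.6% at 24 h. The share of genes with both was not counted, and the permutation p was not adjusted for the number of genes.

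DGAT1A fell between 12 h and 24 h in both lines. In M2 the log2 change was -0.29 (SE 0.06, 95% interval -0.42 to -0.17, limma adjusted p = 0.000642), with the mean scaled level at 24 h 0.81 times that at 12 h. The lowest M2 library at 12 h, at 29.9 scaled FPKM, was above the highest at 24 h, at 25.5 scaled FPKM. Of all genes 70.1% were called in this comparison and 35.2% were called as falling, and 39.3% fell without overlap in scaled FPKM. A smaller absolute change was seen in 44.6% of other genes.

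In WT the fall was smaller, with a log2 change of -0.17 (SE 0.06, 95% interval -0.29 to -0.04, limma adjusted p = 0.0218) and a 24 h level 0.887 times that at 12 h. WT libraries at 12 h (24.7 and 25.7 scaled FPKM) lay above those at 24 h (21.9 to 22.6 scaled FPKM). In this comparison 66.2% of genes were called, 33.0% called as falling, and 39.3% fell without overlap, and 29.2% of other genes had a smaller absolute change. The call was lost without WT 12 h replicate 1 (-0.14, limma adjusted p = 0.126), without WT 24 h replicate 2 (-0.15, limma adjusted p = 0.0598), with the replicate number as a block (-0.15, limma adjusted p = 0.0614), with libraries scaled to an equal upper quartile (-0.13, limma adjusted p = 0.0633), and with scaling over genes of a level like that of DGAT1A (-0.13, limma adjusted p = 0.0698).

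Averaged over the lines, the change with time was -0.23 (SE 0.04, 95% interval -0.32 to -0.14, limma adjusted p = 0.000241), where 76.9% of genes were called and 38.1% called as falling. The exact permutation test (2-sided) of the times within each line gave p = 0.01, the smallest value that its 100 arrangements allow, and with WT 12 h replicate 3 included it gave p = 0.005, the smallest of 200 arrangements. These p were not adjusted for the number of genes. A fall without overlap was seen in 39.3% of genes in WT and in 39.3% in M2, and the share with both was not counted. The difference between the lines was smaller at 24 h than at 12 h by 0.13 on the log2 scale, but this interaction did not pass the test (log2 difference -0.13, SE 0.08, 95% interval -0.30 to 0.05, limma adjusted p = 0.235), while 35.7% of genes were called for it. The falls in the 2 lines are thus not shown to differ.

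**Figure D3:**
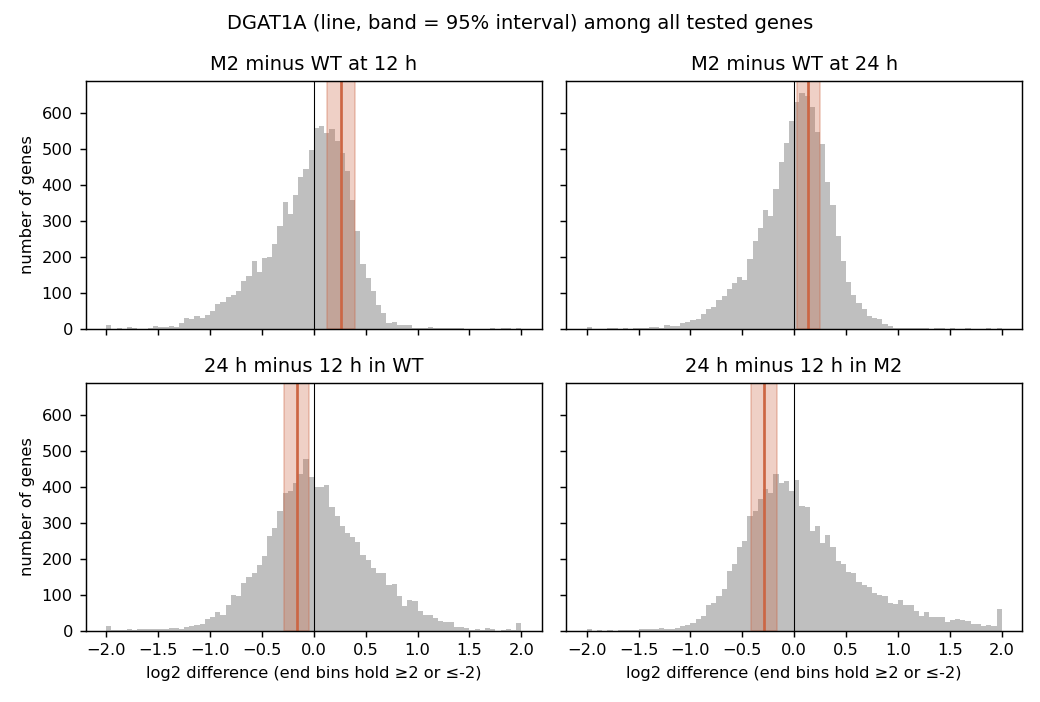
Log2 differences of all 9579 tested genes (grey, number of genes per bin) in 4 comparisons on the log2(scaled FPKM + 1) scale, with the value of DGAT1A as a line and its 95% interval as a band. DGAT1A lies inside the bulk of genes in each comparison, at 0.26, 0.14, -0.17 and -0.29.

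The spread of DGAT1A between replicates was below that of most genes. Its residual SD over the 4 groups was 0.04 on the log2 scale, against a median of 0.08 over all tested genes, and 17.4% of other genes had a smaller one. Moderation across genes raised it to 0.06, the value behind the SEs above. Among 1406 genes with a mean scaled level within 1.2-fold of DGAT1A, from 21.0 to 30.3 scaled FPKM, the median SD between replicates was 0.08 in M2 at 12 h, 0.06 in WT at 12 h, 0.06 in M2 at 24 h and 0.06 in WT at 24 h. DGAT1A had SDs of 0.03, 0.04, 0.06 and 0.02 in the same groups. Its tightest group was WT at 24 h, where 8.89% of these genes had a smaller SD, and its widest was M2 at 24 h, where 51.9% did.

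Set against the same 1406 genes, the changes of DGAT1A were again ordinary in size. Their median line difference was 0.04 on the log2 scale at 12 h and 0.05 at 24 h, and 57.3% and 36.1% of them had a smaller absolute difference than DGAT1A. Their median change with time was -0.05 in WT and -0.05 in M2, with 33.9% and 51.1% of them smaller than DGAT1A in absolute size.

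The genes whose pattern was most like that of DGAT1A were picked by the smallest root mean square difference over the 10 libraries of log2(scaled FPKM + 1), after each gene was centred on the mean of its 4 group means. The closest was scaffold00069.g2258, at a root mean square difference of 0.04 and a Pearson r of 0.974 over the 10 libraries. Its mean levels were 30.9 scaled FPKM in M2 at 12 h, 25.4 in WT at 12 h, 25.4 in M2 at 24 h and 23.4 in WT at 24 h, close to those of DGAT1A in level as well. The next was scaffold00330.g9561, also at 0.04 and with r = 0.977, whose level was several times that of DGAT1A: 174 scaled FPKM in M2 at 12 h, 136 in WT at 12 h, 139 in M2 at 24 h and 126 in WT at 24 h. The files give neither gene a name. The points share the scaling and the group structure, and such likeness was not rare. A root mean square difference of 0.1 or less was seen in 588 of 9578 genes (6.14%), with a median of 0.26 over all. By r, 840 genes had 0.9 or more with DGAT1A and 534 had -0.9 or less. Ranked by r, scaffold00069.g2258 was at 18 and scaffold00330.g9561 at 9. All 4 line and time differences were within 0.1 of those of DGAT1A on the log2 scale in 133 genes, or 1.39%.

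**Figure D4:**
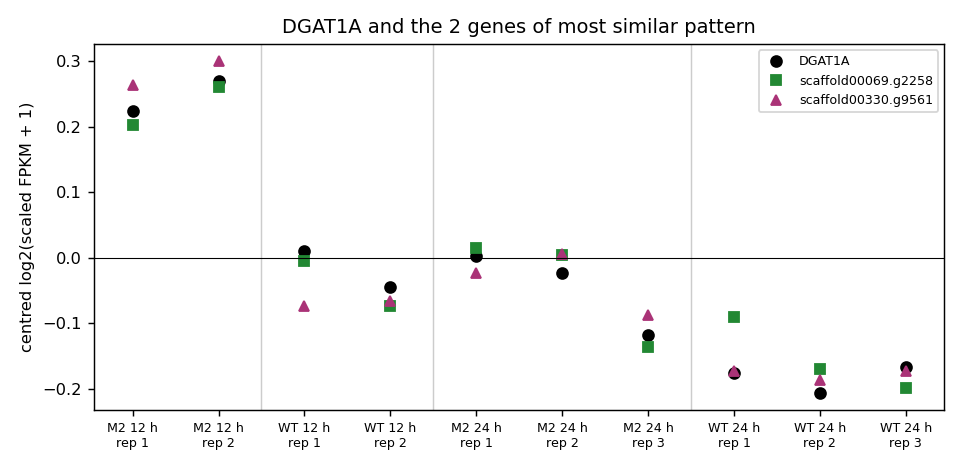
Log2(scaled FPKM + 1) of DGAT1A (circles), scaffold00069.g2258 (squares) and scaffold00330.g9561 (triangles) in the 10 libraries, each gene centred on the mean of its 4 group means. All 3 genes are highest in both M2 12 h libraries and lowest on average in WT 24 h.

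WT 12 h replicate 3 had no part in choosing these genes. In scaled FPKM, DGAT1A was higher in it than in the other WT 12 h libraries, and scaffold00069.g2258 and scaffold00330.g9561 were lower. As 1 library with a differing profile, it cannot show whether the patterns of the genes differ. DGAT1A had 26.1 FPKM there, close to the 25.8 and 24.8 FPKM of the other WT 12 h libraries, although the profile as a whole differed. With all 11 libraries scaled together, the factor of replicate 3 was 0.783, and DGAT1A had 33.4 scaled FPKM in it against 25.0 and 24.0 in replicates 1 and 2, a log2 difference of 0.43. For scaffold00069.g2258 the scaled values were 11.4 against 25.3 and 24.1, a log2 difference of -1.05, and for scaffold00330.g9561 they were 73.3 against 132 and 132, a log2 difference of -0.84. The median absolute difference of replicate 3 from the other WT 12 h libraries was 0.90 over 9579 genes, and 26.2% of other genes departed less than DGAT1A did.

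With WT 12 h replicate 3 included, none of the line and time differences of DGAT1A passed within a single time or line (limma adjusted p = 0.155 to 0.768). The line difference was then 0.12 at 12 h (SE 0.14, limma adjusted p = 0.529) and 0.13 at 24 h (SE 0.13, limma adjusted p = 0.768). The change with time was -0.30 in WT (SE 0.13, limma adjusted p = 0.155) and -0.29 in M2 (SE 0.14, limma adjusted p = 0.235). Neither the line difference at 24 h nor the change in M2 holds a WT 12 h library. Left without replicate 3, they had nearly the same sizes, 0.14 and -0.29, but smaller SEs, 0.05 and 0.06. The spread behind the SEs was estimated once per gene over all libraries fitted, replicate 3 among them. Fitted on the compared groups only, both differences passed (limma adjusted p = 0.037 at 24 h, 0.00455 for M2). With replicate 3 included, calls fell over all genes as well. For the lines 827 genes were called at 12 h, against 5473 without replicate 3, and 433 against 5553 at 24 h. For time 1527 were called against 6338 in WT, and 1447 against 6713 in M2. Averaged over the lines, the fall still passed at -0.29 (SE 0.09, limma adjusted p = 0.0496), and averaged over times, the line difference did not (0.13, SE 0.09, limma adjusted p = 0.373). For these averages 2457 and 1368 genes were called, against 7369 and 6315 without replicate 3. The residual SD of DGAT1A rose from 0.04 to 0.14. When FPKM were used as deposited and replicate 3 was included, the residual SD of DGAT1A itself was 0.04, the moderated SD was 0.11, and the line difference at 12 h was 0.19 (SE 0.10, limma adjusted p = 0.252).

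**Figure D5:**
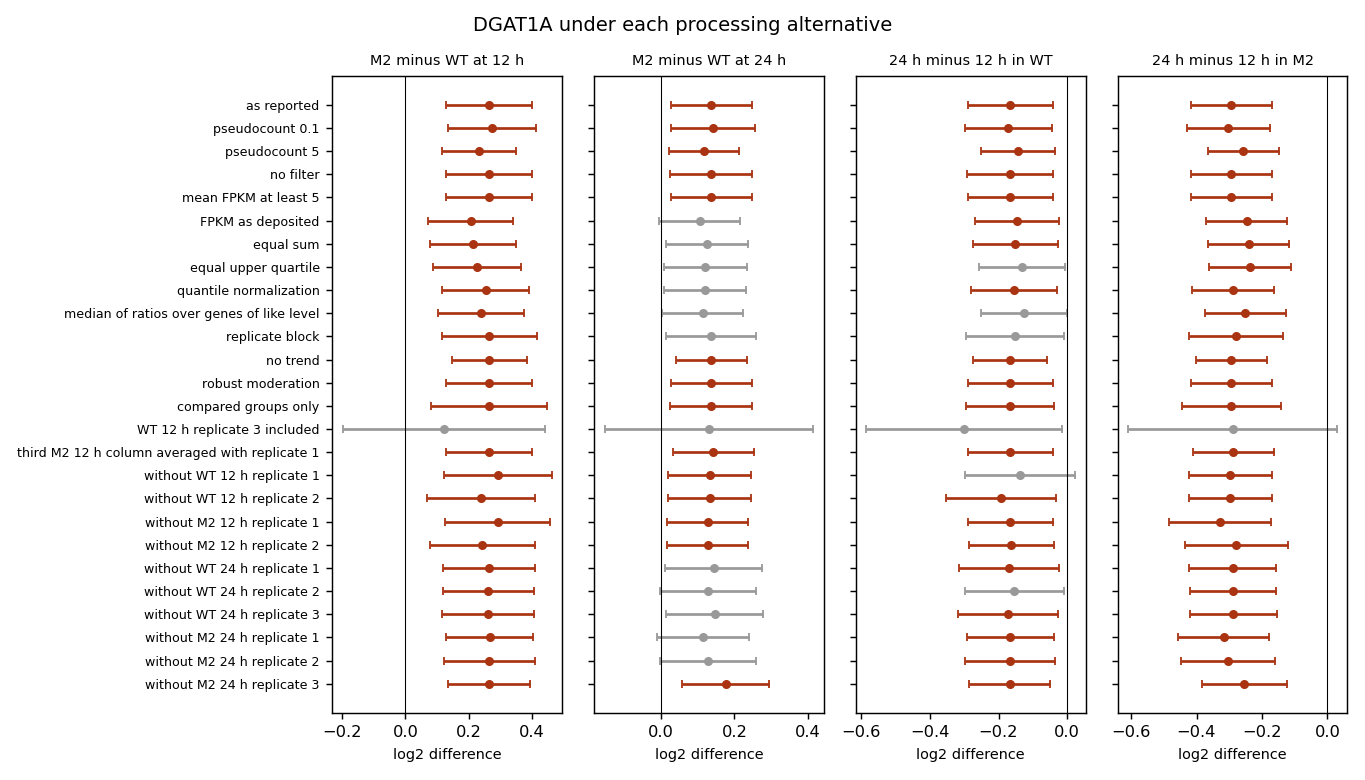
Log2 difference of DGAT1A with its 95% interval in 4 comparisons (panels) as reported and under the alternatives named on the left, in red where the limma adjusted p is under 0.05 and in grey where it is not. The line difference at 12 h and the fall in M2 turn grey only with WT 12 h replicate 3 included, whereas the line difference at 24 h turns grey under 12 of the alternatives drawn.

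The authors' merged tables gave DGAT1A values that departed from the replicate columns at 12 h. The merged value, for which the deposited tables give no replicates, was 32.6 FPKM for M2 at 12 h and 21.9 FPKM for WT at 12 h, a ratio of 1.49, whereas the ratio of the means of the replicate columns was 1.16 in FPKM. The merged M2 value lay above both M2 12 h libraries and the merged WT value below all 3 WT 12 h libraries, replicate 3 included. At 24 h the merged values were 24.6 FPKM for M2 and 22.8 FPKM for WT, a ratio of 1.08, the same as the 1.08 of the replicate means. Over all genes the merged 24 h values had a median of 99.9% of the replicate mean in M2 and 100.2% in WT. At 12 h the median was 75.8% in M2 and 75.2% in WT. The interquartile range there was 58.8% to 128% in M2 and 63.8% to 99.2% in WT. DGAT1A was at 111% and 86.4%, above the median gene in both.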

How the data were processed

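The authors deposited FPKM per gene in a separate table for each group, with 2 further tables of merged values. Per the submitters' processing notes the tools included TopHat2 2.0.4 and Cufflinks 2.0.2. Genome build, annotation and any joint normalization are not stated in the sources used here, so table and group effects cannot be told apart. The M2 24 h columns are headed MT and were assigned through the linked samples. DGAT1A, the 10 libraries and the alternatives were chosen with earlier results of these data known.

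Libraries were scaled by median of ratios. The 9579 genes whose mean over the 10 libraries reached 1 FPKM were tested on log2(scaled FPKM + 1), which understates changes of low genes, with limma 3.58.1 in R 4.3.3: a mean per group, 1 estimate of spread per gene over 10 libraries, moderated with an intensity trend, 2-sided, adjusted by Benjamini-Hochberg over all genes in each of 8 comparisons, threshold 0.05. No count model was applied to FPKM, and depth is unknown. The fit was tested on simulated data, and the permutation test on a constructed example with a known answer. Named genes besides DGAT1A were the 2 of most similar pattern. Replicates are biological per the labels. Python 3.11.15, pandas 2.3.3, numpy 2.4.6 and matplotlib 3.10.9 were used. Alternatives were pseudocounts of 0.1 and 5, other filters and scalings, a replicate block, separate fits, other moderation and leaving out or adding libraries.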

Additional observations from a re-analysis of the deposited data

Results flagged for a closer look

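DGAT1A had high values in 2 of the columns left out of the comparisons over 10 libraries. In WT 12 h replicate 3 it had 33.4 scaled FPKM, above 25.0 and 24.0 in the other WT 12 h libraries and above 29.2 and 30.1 in both M2 12 h libraries on the same scaling. In FPKM as deposited, the value there was 26.1, below both M2 12 h libraries. The authors' merged M2 12 h column held 32.6 FPKM, above the merged WT value of 21.9 FPKM and above both M2 12 h replicate columns. Among other columns left out, the third M2 12 h column held 20.9 FPKM, which is the value of replicate 1 multiplied by 0.723. The merged WT value of 21.9 FPKM lay below every WT 12 h library.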

How the results depend on the processing

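All line and time differences within 1 time or line kept their direction under every alternative. With only the compared groups fitted and WT 12 h replicate 3 left out, each of them stayed past the threshold (limma adjusted p = 0.00455 to 0.037). Including WT 12 h replicate 3 gave values past no threshold for M2 against WT at 12 h (0.12) and 24 h (0.13) and on average (0.13, exact permutation p = 0.205), and for the change with time in WT (-0.30) and M2 (-0.29), and turned the interaction to 0.0098 (limma adjusted p = 0.979). Together with FPKM as deposited, chosen after seeing the data, it gave 0.19, 0.11, 0.15, -0.16 and -0.25 in that order, and -0.20 for time averaged over the lines, none past the threshold. At 24 h the line difference was not past it with FPKM as deposited (0.11), equal sum (0.13), equal upper quartile (0.12), quantile normalization (0.12), scaling over genes of like level (0.11) or the replicate block (0.14), nor was the WT time change with equal upper quartile (-0.13), scaling over genes of like level (-0.13) or the block (-0.15). Deviations of same-numbered libraries had r = -0.04 to 0.03, and those of differently numbered libraries r = -0.04 to 0.04. The deviations within each 12 h group mirror each other, so between these groups r only changes sign with the numbering. Whether the numbers pair the libraries is therefore not settled. The block changed no other call of DGAT1A.

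Leaving out each library gave 0.24 to 0.29 for the lines at 12 h, 0.11 to 0.18 at 24 h, -0.19 to -0.14 for time in WT, -0.33 to -0.25 in M2, and -0.0586 to 0.0091 for M2 at 24 h against WT at 12 h, where the positive value came without M2 24 h replicate 3. Where 1 library of a group was left, it was assumed to vary like the others. Called genes numbered 5473 and 5553 for the lines at 12 h and 24 h, 6338 and 6713 for time in WT and M2, 3416 for the interaction, 6315 and 7369 for the averages and 5976 for M2 at 24 h against WT at 12 h. With WT 12 h replicate 3 they were 827, 433, 1527, 1447, 34, 1368, 2457 and 1492, and with FPKM as deposited besides, 614, 285, 1207, 1163, 35, 1047, 2093 and 1211. Ranked by Pearson r, 0 of the 2 most similar genes were the named ones, and with FPKM as deposited both were. The cause of these differences was not tested.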
